A study of Mus musculus with 16 samples.

Results

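The gene desert locus is a stretch of mouse chromosome 5 (mm9, chr5:133308809-133500808, 192 kb) that the study included as a negative control beside 6 loci around the genes Oct4, Nanog, Sox2, Nestin, Klf4 and Olig1-Olig2. Its members are the primer pairs of 1 forward and 1 reverse primer whose restriction fragments both have their midpoint in the authors' bins of that locus. There were 24 forward and 24 reverse primers, which make 576 of the 92436 such pairs within the 7 loci. Chromosome conformation capture carbon copy (5C) was read in 3 groups of mouse cells with 2 libraries each. Neural progenitor cells (NPC) were taken from whole brains of mice at postnatal day 1 that carry Sox2-eGFP on a 129SvJae x C57BL/6 background, grown as neurospheres and fixed after adherent plating. V6.5 embryonic stem (ES) cells, male cells of the same mixed background, were kept with LIF either in serum (ES serum) or in serum-free 2i medium (ES 2i), first on feeder cells and then on gelatin. All 3 groups were fixed with formaldehyde. Nothing in the labels says that the 2 libraries of a group came from separate animals or cultures, so tests over libraries measure the spread between these libraries.

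In 5C, DNA is cut with HindIII inside fixed cells, ends that lie close together are ligated, and primers placed in alternation along a locus copy each junction, so that a forward and a reverse primer are counted together when their fragments were joined. Contact counts fall with the distance along the chromosome because nearby segments of a polymer meet often, and loops, domain borders and compaction are read as departures from that decay. A gene desert is a long stretch with few or no genes, and in such assays it serves as a control in which gene-linked contacts are not looked for. Counts also depend on how well each primer works and on fragment length. No annotation of the mm9 build was used here, so the gene content of the interval was not checked. The fragments had a median length of 2744.5 bp, with a range of 318 to 10365 bp.

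The libraries held 14887963 and 14698138 counts in NPC, 26533530 and 25791222 in ES serum, and 11784821 and 14201950 in ES 2i. Gene desert pairs took 397157 and 450554 of these counts in NPC, 351159 and 287630 in ES serum, and 240688 and 236827 in ES 2i. Of the 576 pairs, 570 had at least 1 count in every library and none was at 0 in all of them. Gene desert primers were also counted with primers of the other 6 loci, which lie on other chromosomes. Such contacts made up 24.6% and 16.4% of the gene desert primers' forward-reverse counts in NPC, 39.2% and 44.8% in ES serum, and 17.8% and 33.0% in ES 2i. That share was highest in both ES serum libraries, and the NPC and ES 2i libraries overlapped.

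Contact counts in the gene desert fell steeply over the first 16 kb and slowly beyond. Among the 30 pairs up to 4 kb apart the median count was 7026.5 and 7142.5 in the NPC libraries, 3950 and 2594 in the ES serum libraries, and 3524 and 3589.5 in the ES 2i libraries. Among the 72 pairs 16 to 32 kb apart it was 182.5 and 233.5 in NPC, 270.5 and 273 in ES serum, and 151 and 156.5 in ES 2i. Among the 78 pairs 128 to 192 kb apart it was 29 and 55 in NPC, 69.5 and 72.5 in ES serum, and 30.5 and 42 in ES 2i. Raw counts were thus highest in NPC at short range and highest in ES serum, the most deeply sequenced group, at long range. Scaled per 1000000 counts within the 7 loci, the median pair up to 4 kb apart had 571 and 557 in NPC, 185 and 127 in ES serum, and 332 and 309 in ES 2i, with no overlap between groups. At 128 to 192 kb the same measure was 2.36 and 4.29 in NPC, 3.25 and 3.54 in ES serum, and 2.88 and 3.61 in ES 2i, so the NPC libraries enclosed all the others. The groups stood apart at short range and overlapped at long range.

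**Figure D1:**
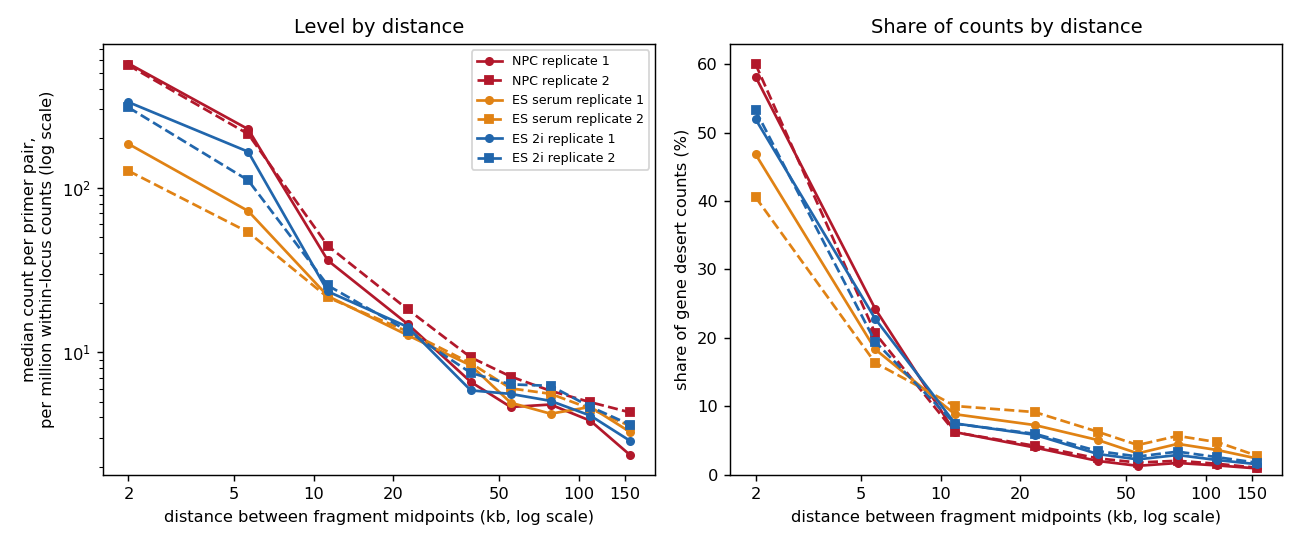
Left, median count per gene desert primer pair, per 1000000 counts within the 7 loci, against the distance between fragment midpoints, both axes on a log scale, one line per library. Right, share of all gene desert counts in each distance class. The NPC libraries start highest, at 571 and 557, and the ES serum libraries lowest, at 185 and 127, and the 6 lines run together beyond about 16 kb.

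Most counts came from fragments that touch each other. The 44 pairs of neighbouring fragments held 78.5% and 76.3% of all gene desert counts in NPC, 61.3% and 52.7% in ES serum, and 69.4% and 68.4% in ES 2i. The 480 pairs at least 16 kb apart held 11.3% and 13.1% in NPC, 26.0% and 33.0% in ES serum, and 17.7% and 19.8% in ES 2i. The groups did not overlap on either measure. The difference in the share beyond 16 kb was −17.3 percentage points for NPC minus ES serum, −6.56 for NPC minus ES 2i and 10.7 for ES serum minus ES 2i. Each of the 3 exact permutation tests over libraries (two-sided) gave p = 0.333, the smallest that 2 libraries against 2 can give.

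The 3 pairs with the highest mean level were all junctions of neighbouring fragments. F47-R48, written as the forward and the reverse primer number, joins chr5:133437662-133439818 with chr5:133439819-133440483. It had 18357 and 25441 counts in NPC, 19760 and 13715 in ES serum, and 11485 and 11837 in ES 2i, which made it 4.62% to 5.65% of the gene desert counts of a library. F14-R15, at the left end of the locus, had 17312 and 15219 counts in NPC, 21819 and 16347 in ES serum, and 11484 and 9780 in ES 2i. F47-R46 had 15969 and 19182 counts in NPC, 13660 and 10919 in ES serum, and 8523 and 8667 in ES 2i. F47 therefore stood in both of its neighbour junctions at the top. The pair with the longest distance, F14-R68 at 188.6 kb, had 45 and 47 counts in NPC, 90 and 100 in ES serum, and 26 and 40 in ES 2i. Scaled per 1000000 within-locus counts, these were 3.66 and 3.67 in NPC, 4.21 and 4.89 in ES serum, and 2.45 and 3.44 in ES 2i, and none of the 3 edgeR comparisons of this pair passed the threshold (adjusted p of 0.48 to 0.87).

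The decay slope was steepest in NPC and shallowest in ES serum. The slope is the change in log2(count + 1) per doubling of distance, fitted over all 576 pairs of a library. It was −1.16 and −1.10 in NPC, −0.87 and −0.80 in ES serum, and −1.02 and −0.96 in ES 2i, so the groups did not overlap. The slope was lower by 0.30 in NPC than in ES serum and by 0.14 in NPC than in ES 2i, and it was higher by 0.16 in ES serum than in ES 2i. The exact permutation p was 0.333 in each comparison, again the smallest possible. The 6 gene loci, limited to the distances found in the gene desert, had the same order of groups. Their slope differences lay between −0.28 and −0.20 for NPC against ES serum, between −0.21 and −0.08 for NPC against ES 2i, and between 0.03 and 0.13 for ES serum against ES 2i. Among pairs at least 16 kb apart, the gene desert slope was −0.80 and −0.80 in NPC, −0.67 and −0.71 in ES serum, and −0.73 and −0.69 in ES 2i. There the NPC libraries were still the steepest, while the ES serum and ES 2i libraries overlapped.

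Against the mean of the 6 gene loci in the same library, the gene desert decayed more steeply in all 6 libraries. The gene desert slope minus the mean slope of the 6 gene loci was −0.17 ± 0.04 (SD, n = 6 libraries), with values from −0.21 to −0.11 (exact sign-flip permutation test, two-sided, p = 0.0312, the smallest that 6 libraries can give). Without pairs under 16 kb the difference shrank to −0.04 ± 0.03, was below 0 in 5 of 6 libraries and no longer passed (exact p = 0.0625). The gene desert was then the steepest of the 7 loci in 1 NPC library and both ES 2i libraries. Without pairs of neighbouring fragments the difference was −0.08 ± 0.04 in the 6 libraries (exact p = 0.0312). With slopes from a quasi-Poisson regression on the counts, it was −0.17 ± 0.03. In that regression Klf4 was steeper than the gene desert in both NPC libraries, at −1.16 and −1.11 against −1.08 and −1.07. The primer sets differ between loci, so this compares 7 primer sets and not gene deserts with gene loci in general.

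**Figure D2:**
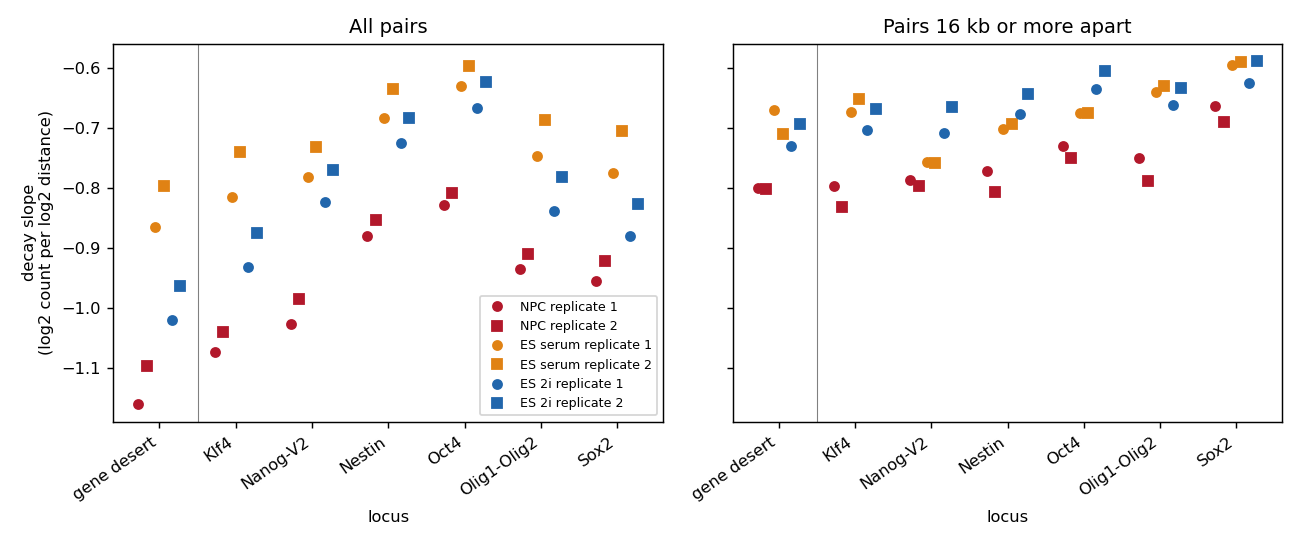
Decay slope of each locus (log2 count per log2 distance, pairs up to the longest gene desert distance), one point per library. Left, all pairs; the gene desert points, from −1.16 to −0.80, lie below those of the other loci in the same library. Right, pairs at least 16 kb apart, where the gene desert points lie at −0.80 to −0.67 and are the lowest of the 7 loci in 1 NPC library and both ES 2i libraries.

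The level of the gene desert at matched distance depended on whether the mean or the median pair was taken. On the mean count per pair, averaged over 9 distance classes, the gene desert stood at 0.776 and 0.889 times the gene loci in NPC, 0.601 and 0.587 times in ES serum, and 0.645 and 0.626 times in ES 2i. The gene desert was lower in all 6 libraries (mean log2 ratio −0.56 ± 0.24, SD; exact sign-flip p = 0.0312). All 6 libraries share the same primers, so the sign-flip tests of this level cover the spread between libraries and not between loci. The primer sets differ between loci, and the level describes these primer sets only. On the median count per pair, the ratio was 1.21 and 1.25 in NPC, 0.789 and 0.759 in ES serum, and 1.07 and 0.919 in ES 2i, with a mean log2 ratio of −0.03 (exact p = 0.781). On the median, both NPC libraries stood above the gene loci, both ES serum libraries below them, and the ES 2i libraries on either side. Among pairs at least 16 kb apart the mean-based ratio was 0.594 and 0.707 in NPC, 0.488 and 0.485 in ES serum, and 0.494 and 0.491 in ES 2i.

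The share of within-locus counts that fell in the gene desert was highest in NPC. It was 3.23% and 3.51% in NPC, 1.64% and 1.41% in ES serum, and 2.27% and 2.04% in ES 2i, with no overlap between groups. The share was 2.21 times as high in NPC as in ES serum (log2 ratio 1.15), 1.57 times as high in NPC as in ES 2i (log2 ratio 0.65) and 0.707 times as high in ES serum as in ES 2i (log2 ratio −0.50). Each exact permutation p was 0.333, the smallest possible. These totals include pairs of the gene loci at longer distances than the gene desert holds. Over pairs up to the longest gene desert distance, the 3 ratios were 2.01, 1.46 and 0.727 in the same order. Counted only over pairs at least 16 kb apart, the share was 0.846% and 1.03% in NPC, 0.669% and 0.663% in ES serum, and 0.710% and 0.674% in ES 2i. There the ratio of NPC to ES serum was 1.41 and that of ES serum to ES 2i was 0.962. With the longest gene desert distance as an upper limit as well, they were 1.41 and 0.941.

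Over all tested primer pairs, the replicate spread of the gene desert lay within the range of the gene loci. After removing a smooth distance trend, the SD of the log2 ratio between the 2 libraries of a group, over the 563 pairs that passed edgeR's count filter, was 0.67 in NPC, 0.52 in ES serum and 0.71 in ES 2i. The 6 gene loci ranged from 0.61 to 0.97 in NPC, from 0.42 to 0.66 in ES serum and from 0.58 to 0.83 in ES 2i over the same distances. Among pairs with a mean count of at least 50, the gene desert SD was 0.59 in NPC, 0.46 in ES serum and 0.67 in ES 2i. The gene loci then ranged from 0.55 to 0.74, from 0.36 to 0.45 and from 0.52 to 0.63 in the same order. The gene desert thus had the largest SD of the 7 loci in both ES groups there. Its median pair lay inside the range of the gene loci, at 1.19-fold in ES serum (gene loci 1.16 to 1.21) and 1.30-fold in ES 2i (1.24 to 1.32). Summed over 16 kb windows (73 window pairs), the SD was 0.32 in NPC, 0.39 in ES serum and 0.62 in ES 2i. The gene loci then ranged from 0.35 to 0.44, from 0.23 to 0.28 and from 0.33 to 0.36 in the same order. The gene desert again had the largest SD in both ES groups. Its median window pair again lay inside the range of the gene loci, at 1.10-fold in ES serum (gene loci 1.09 to 1.12) and 1.16-fold in ES 2i (1.15 to 1.17). Over the 563 tested pairs, the median pair differed between replicates by 1.33-fold in NPC, 1.21-fold in ES serum and 1.32-fold in ES 2i. Pearson's r of log2 counts across these pairs was 0.96 in NPC, 0.96 in ES serum and 0.95 in ES 2i, a description only, since all pairs share the decay with distance. By SD, the replicate spread was smallest in ES serum, which has the most counts, over single primer pairs, and smallest in NPC over 16 kb windows. By the median 16 kb window pair it was smallest in ES serum, at 1.10-fold, and largest in NPC, at 1.20-fold. No 2 libraries of a group were the same within sampling noise, since chi-square divided by its degrees of freedom was 18.2 to 29.9 over the gene desert pairs.

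Pairs were then compared after the decay of each library and locus was taken out, which asks which contacts are high or low for their distance. The test was the quasi-likelihood test of edgeR, its p-values adjusted (Benjamini-Hochberg) over all 76201 pairs of the 7 loci that passed the count filter, and a pair was called at an adjusted p below 0.05. Of the 576 gene desert pairs, 563 passed that filter.

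Between NPC and ES 2i, 1 of 563 gene desert pairs was called, a fall in NPC, while 4.00% of all pairs were (1.54% rose and 2.46% fell). F53-R25, which joins chr5:133451389-133459115 and chr5:133350057-133352420 across 104.0 kb, had 101 and 130 counts in NPC and 210 and 245 in ES 2i. It fell in NPC, with a log2 fold change of −1.22 ± 0.30 (SE; edgeR adjusted p = 0.033). That call did not hold when any 1 of the 6 libraries was left out. In the gene desert 22 of 563 pairs had an unadjusted edgeR p below 0.05, a level that a share of 0.05 of pairs would pass with no change. DESeq2 on the same offsets called 3 gene desert pairs, against 8.39% of all pairs. At the distances of the gene desert, the 6 gene loci had 3.37% to 7.77% of their pairs called in this comparison, and the gene desert 0.178%. The SD of the log2 fold change over pairs was 0.47 in the gene desert and 0.69 to 1.33 in the gene loci. Without the distance trend, with TMM scaling only, 37 gene desert pairs were called (6.57%), all 37 of them higher in NPC, while 8.09% of all pairs were called (3.33% rose and 4.76% fell).

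Between NPC and ES serum, 80 of 563 gene desert pairs were called (14.2%), while 15.0% of all pairs were. At the distances of the gene desert, 15.3% to 25.6% of the pairs of the gene loci were called. Of the 80 gene desert pairs, 32 rose and 48 fell in NPC, against 7.80% and 7.18% of all pairs that rose and fell. The median log2 fold change was −0.01 over the gene desert pairs and 0.01 over all pairs. Since the trend was taken out per library and locus, a small gene desert median follows from the fit and does not show unchanged contacts. The largest rises were pairs of reverse primer 40 (chr5:133396323-133400512). F45-R40, 35.0 kb apart, had 112 and 213 counts in NPC and 35 and 49 in ES serum (log2 fold change 2.61 ± 0.38, edgeR adjusted p = 0.0003). F16-R40, at 81.7 kb, had 111 and 223 counts in NPC and 60 and 43 in ES serum (2.47 ± 0.38, edgeR adjusted p = 0.00047). F20-R40, at 63.0 kb, had 65 and 106 counts in NPC and 26 and 28 in ES serum (2.43 ± 0.42, edgeR adjusted p = 0.0012). All 3 were higher in NPC in raw counts as well, although the ES serum libraries were the deeper ones.

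The largest falls did not share a single primer. F43-R15, which spans 104.2 kb, had 52 and 45 counts in NPC and 597 and 437 in ES serum, with a log2 fold change of −2.53 ± 0.38 (edgeR adjusted p = 0.0004). F35-R52, at 67.7 kb, had 12 and 24 counts in NPC and 133 and 178 in ES serum (−2.33 ± 0.50, edgeR adjusted p = 0.0053). F53-R25 had 101 and 130 counts in NPC and 960 and 871 in ES serum (−2.14 ± 0.31, edgeR adjusted p = 0.00029). For all 3 the counts in NPC were below every ES serum count. The split of rises and falls depended on the centring. TMM scaling alone called 173 gene desert pairs, 30.7% of them against 17.8% of all pairs. Of these 173, 162 rose and 11 fell, while 9.37% of all pairs rose and 8.44% fell, and the median log2 fold change was 0.67 over the gene desert pairs. A single distance trend over all loci gave 104 rises and 11 falls in the gene desert (20.4% called, against 15.8% of all pairs), beside 6369 rises and 5663 falls over all pairs. A trend from mean counts gave 51 rises and 37 falls in the gene desert (15.6% called, against 15.7% of all pairs), beside 6253 rises and 5728 falls over all pairs. The number of called gene desert pairs was 22 without ES serum replicate 2 (3.89%, against 5.17% of all pairs), 27 without ES serum replicate 1 (4.78%, against 5.8%) and 49 without NPC replicate 2 (8.63%, against 10.6%). In these fits a group has 1 library that is assumed to vary like the others. F35-R52 was not called without ES serum replicate 2.

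Between ES serum and ES 2i, 81 of 563 gene desert pairs were called (14.4%), while 10.1% of all pairs were. Of these, 35 rose and 46 fell in ES serum, against 4.59% and 5.53% of all pairs. TMM scaling alone called 98 gene desert pairs, 31 up and 67 down in ES serum, and 11.8% of all pairs (4.65% up and 7.13% down). At the distances of the gene desert, 12.2% to 21.4% of the pairs of the gene loci were called. The largest falls in ES serum again shared reverse primer 40. F33-R40 at 19.7 kb had 68 and 83 counts in ES serum and 299 and 265 in ES 2i (log2 fold change −2.77 ± 0.34, edgeR adjusted p = 0.00015). F45-R40 had 35 and 49 counts in ES serum and 125 and 136 in ES 2i (−2.73 ± 0.38, edgeR adjusted p = 0.00044). F49-R40 at 44.2 kb had 33 and 31 counts in ES serum and 83 and 110 in ES 2i (−2.67 ± 0.40, edgeR adjusted p = 0.00076). These comparisons share the ES serum libraries with the previous one, so the R40 pairs of both rest on the same low ES serum counts.

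The largest rises in ES serum joined F35 or R52 to other fragments. F63-R52, which spans 38.4 kb, had 76 and 98 counts in ES serum and 8 and 8 in ES 2i (log2 fold change 2.32 ± 0.62, edgeR adjusted p = 0.028). F35-R52 had 133 and 178 counts in ES serum and 16 and 14 in ES 2i (2.29 ± 0.50, edgeR adjusted p = 0.0095). F35-R56 at 80.8 kb had 79 and 98 counts in ES serum and 11 and 8 in ES 2i (2.10 ± 0.55, edgeR adjusted p = 0.025). These are low counts in ES 2i, and F63-R52 and F35-R56 were not called once any ES library was left out. F35-R52 was not called without ES serum replicate 2, ES 2i replicate 1 or ES 2i replicate 2. The number of called gene desert pairs was 13 without ES serum replicate 2 (2.3%, against 1.97% of all pairs), 15 without ES 2i replicate 1 (2.64%, against 2.54%), 20 without ES serum replicate 1 (3.54%, against 2.93%) and 37 without ES 2i replicate 2 (6.51%, against 4.72%).

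The changes against ES serum were mostly shared by all pairs of a primer. Additive effects of the forward and the reverse primer held 74.3% of the variance of the log2 fold changes over gene desert pairs for NPC against ES serum and 80.1% for ES serum against ES 2i (adjusted R2), and 33.4% for NPC against ES 2i. In the gene loci this share was 58.8% to 80.6%, 71.3% to 88.3% and 46.7% to 73.2% in the same order of comparisons. All 24 pairs of reverse primer 40 were higher in NPC than in ES serum, with a median log2 fold change of 1.80 and 16 of them called, and all 24 were lower in ES serum than in ES 2i, with a median of −1.69 and 17 called. Forward primer 43 (chr5:133413032-133423014) had the lowest median for NPC against ES serum, −1.09 over 23 pairs, of which 11 were called as falls. Forward primer 35 (chr5:133382755-133384256) had the highest median for ES serum against ES 2i, 1.25 over 23 pairs, of which 13 were called as rises. For NPC against ES 2i the fragment medians stayed between −0.43 for R50 and 0.41 for R62.

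**Figure D3:**
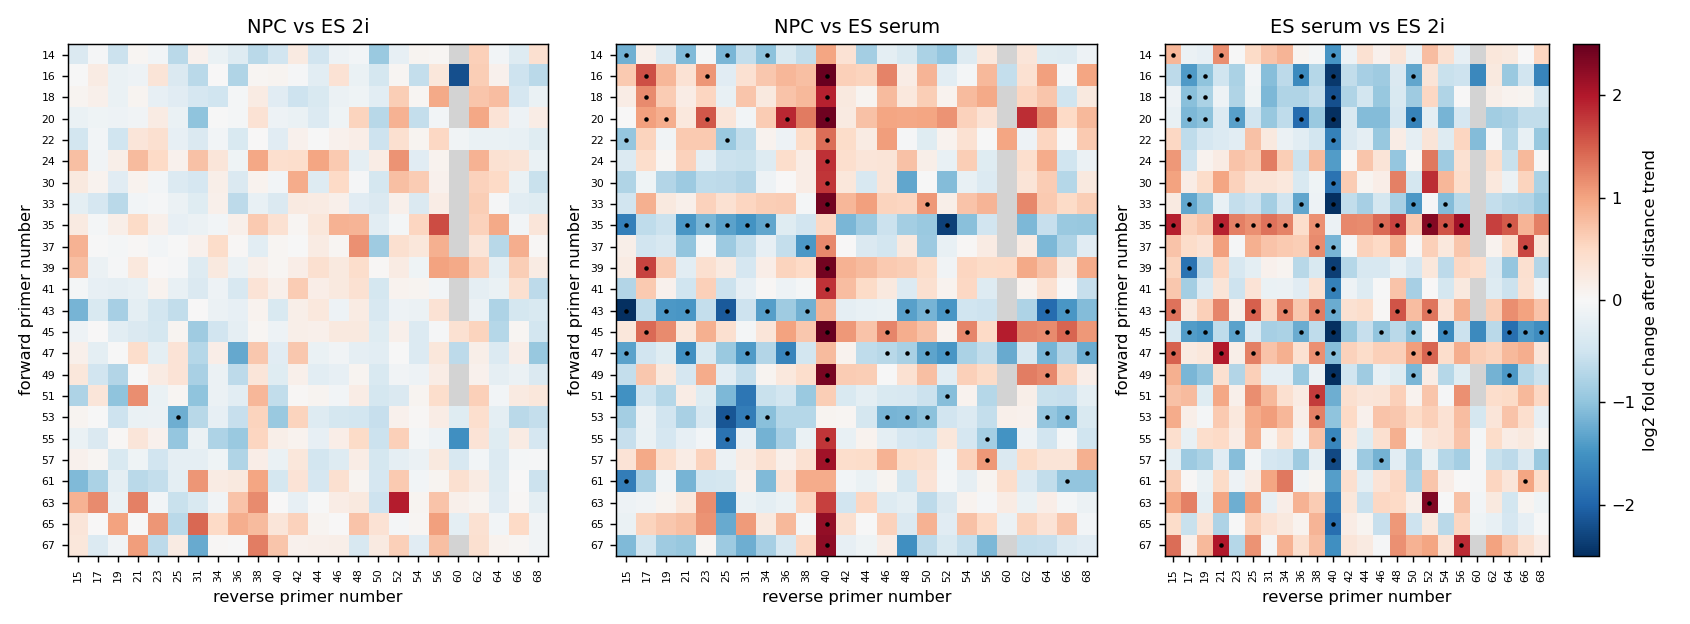
Log2 fold change of each gene desert pair after the distance trend, forward primers down the page and reverse primers across, both in order along the locus; red is higher in the first group named, dots mark called pairs (80 for NPC vs ES serum, 81 for ES serum vs ES 2i, 1 for NPC vs ES 2i), and grey marks pairs that did not pass the count filter. Whole columns and rows share a colour, most of all reverse primer 40.

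Several of these primers also differed between groups in their contacts with the other 6 loci. Reverse primer 40 had 756 and 1010 such counts per 1000000 between-locus counts in NPC, 325 and 315 in ES serum, and 1117 and 812 in ES 2i. Forward primer 45 (chr5:133429793-133437043) had 565 and 721 in NPC, 237 and 227 in ES serum, and 598 and 603 in ES 2i. Both were low in the ES serum libraries alone. Forward primer 43 went the other way, with 580 and 728 in NPC, 916 and 807 in ES serum, and 659 and 514 in ES 2i. Forward primer 35 differed less there than inside the gene desert, with 872 and 1049 in NPC, 1142 and 1207 in ES serum, and 956 and 894 in ES 2i, a log2 ratio of 0.34 for ES serum against ES 2i. Some fragments had opposite signs, such as R48 for NPC against ES serum (median of −0.29 inside the gene desert and log2 ratio of 0.72 with other loci) and F37 for ES serum against ES 2i (0.57 inside and −0.13 with other loci). Across the 48 fragments, the median log2 fold change inside the gene desert and the log2 ratio of contacts with other loci had a Pearson's r of 0.83 for NPC against ES serum, 0.71 for ES serum against ES 2i and 0.23 for NPC against ES 2i (Spearman's rho 0.79, 0.62 and 0.25). These are descriptions, since the points share libraries and primers. Without R40 the r was 0.82 and 0.66 for the comparisons with ES serum. The correlation of the fragment medians with log2 fragment length was −0.63 for NPC against ES 2i, 0.22 for NPC against ES serum and −0.49 for ES serum against ES 2i. The part that a primer's counts with other loci, or fragment length, had in the gene desert changes was not tested.

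**Figure D4:**
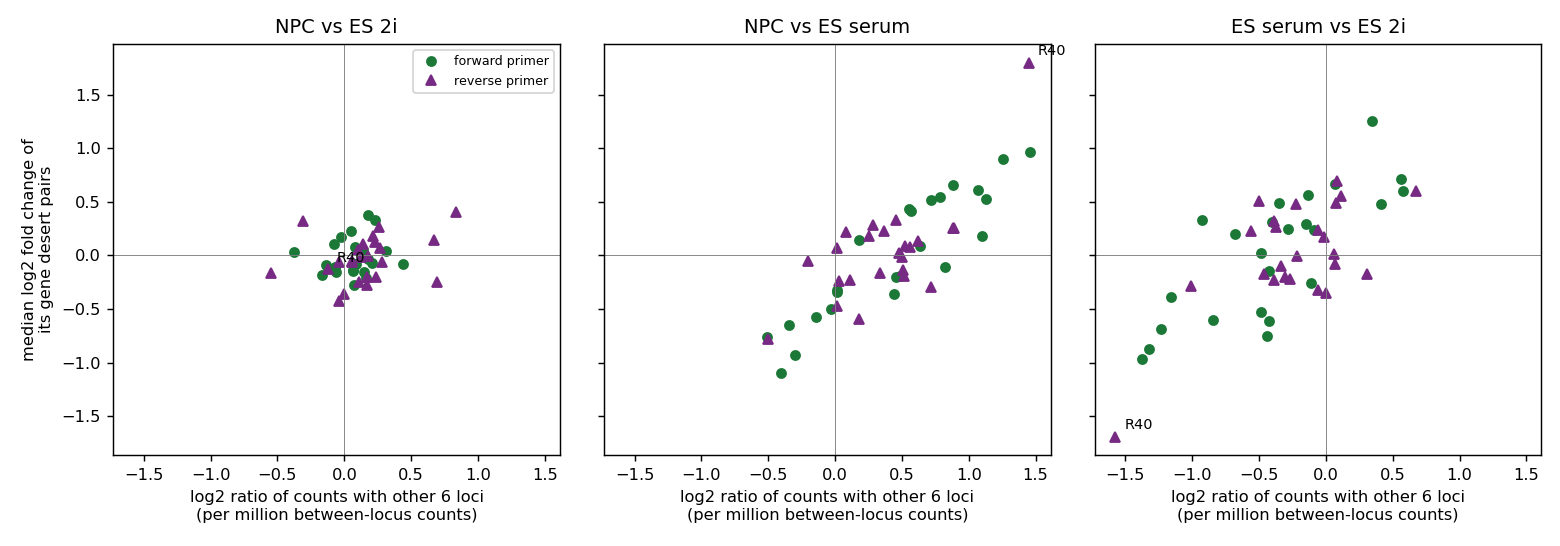
For each of 48 gene desert fragments, the median log2 fold change of its gene desert pairs (vertical) against the log2 ratio of its counts with the other 6 loci (horizontal, per 1000000 between-locus counts), forward primers as circles and reverse primers as triangles. R40 lies at the vertical extreme in both comparisons with ES serum, at 1.80 and −1.69, and the NPC vs ES 2i panel shows a compact cloud.

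When each library's primer effects were also taken out, few gene desert pairs were called by edgeR. The counts were 0 of 563 for NPC against ES 2i (2.48% of all pairs called), 6 for NPC against ES serum (3.48% of all) and 0 for ES serum against ES 2i (0.189% of all). At an unadjusted edgeR p below 0.05 there were 28, 60 and 47 of 563 gene desert pairs in the same order. With no change at all, a share of 0.05 of pairs would pass that level. The 28 pairs lie near that share and the 60 and 47 above it, and the share over all pairs was not counted. No pair of reverse primer 40 was among the 6 pairs called at the adjusted threshold, and F45-R40 had a balanced log2 fold change of 0.04 for NPC against ES serum. Of the 6 pairs called after balancing, F37-R38 (0.6 kb apart), F24-R23 and F43-R64 had a negative balanced log2 fold change for NPC against ES serum, and F22-R21, F43-R44 and F55-R52 a positive one. With the distance trend alone F37-R38 and F43-R64 were also called as falls, and the other 4 were not called (edgeR adjusted p of 0.15 to 0.732). F37-R38 had 4456 and 5271 counts in NPC and 5621 and 3926 in ES serum, with a balanced log2 fold change of −1.16 (edgeR adjusted p = 0.0048). F43-R64, across 73.33 kb, had 95 and 67 counts in NPC and 672 and 475 in ES serum, with a balanced value of −1.03 (edgeR adjusted p = 0.0336). F24-R23 had 6976 and 9658 counts in NPC and 4812 and 3900 in ES serum, higher in NPC, while its log2 fold change was −0.23 after the distance trend and −0.67 after balancing (edgeR adjusted p = 0.626 and 0.0334). At the same distances, balancing left 3.29% to 10.3% of gene-locus pairs called for NPC against ES serum, 3.01% to 9.08% for NPC against ES 2i and 0.167% to 0.726% for ES serum against ES 2i, against 1.07%, 0% and 0% in the gene desert. The gene desert share was thus below that of each gene locus in both comparisons with NPC, while for ES serum against ES 2i 0 called pairs lies near the 0.189% of all pairs. A change shared by all contacts of a fragment is removed with the primer effect, whatever its source, and the degrees of freedom were not reduced for the balancing. A gene desert primer has at most 24 pairs to fit its effect, while primers of the gene loci have up to 74 (Nanog) to 161 (Oct4). The fit can thus absorb more of the spread in the gene desert, and how far this lowered its share was not tested.

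**Figure D5:**
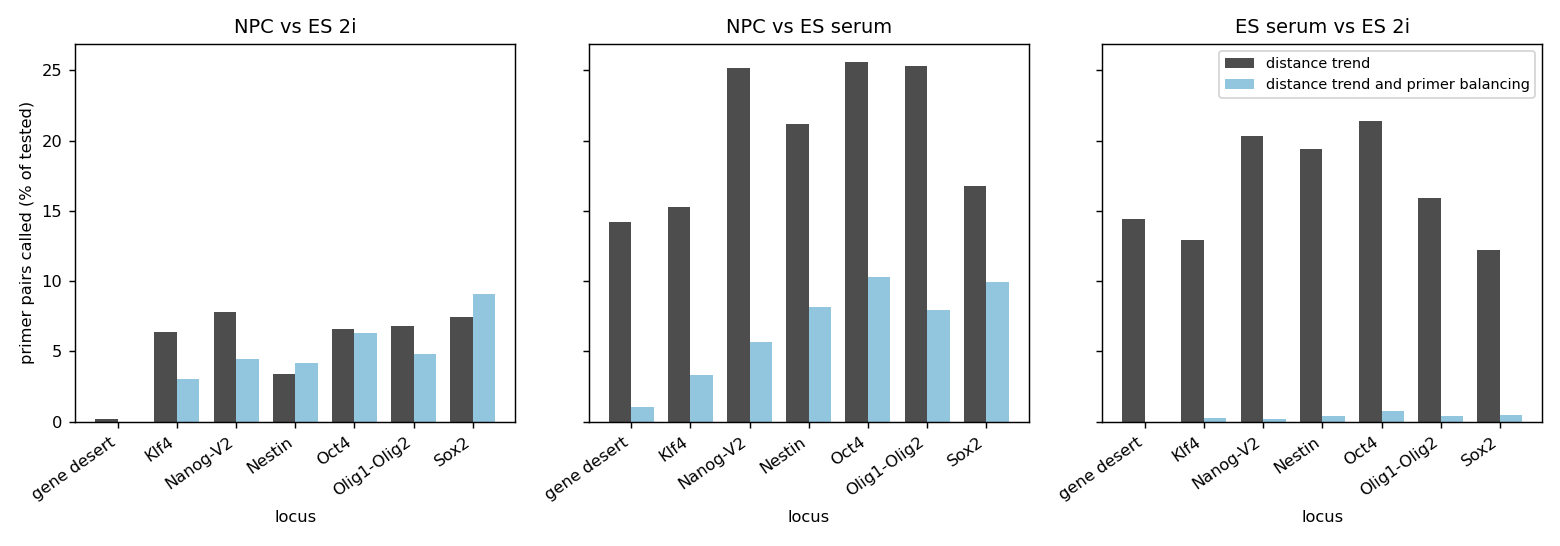
Share of tested primer pairs called at an adjusted p below 0.05 in each locus (bars, %), among pairs up to the longest gene desert distance, with the distance trend alone (dark) and with primer balancing added (light). The gene desert goes to 1.07% from 14.2% for NPC vs ES serum when balancing is added, and to 0% from 14.4% for ES serum vs ES 2i.

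Single fragments differed far more in level than the groups did. F47 (2157 bp) took part in 10.5% and 11.7% of gene desert counts in NPC, 14.3% and 14.9% in ES serum, and 10.8% and 11.3% in ES 2i, the highest of the 48 fragments on average. R60 (chr5:133480793-133487486, 6694 bp) took part in 0.205% and 0.146% in NPC, 0.213% and 0.149% in ES serum, and 0.169% and 0.179% in ES 2i, the lowest. The median pair of R60 lay at −4.74 to −3.29 log2 units from the distance trend over the 6 libraries. Its contacts with the other 6 loci were not 0, at 282 and 424 per 1000000 between-locus counts in NPC, 216 and 234 in ES serum, and 294 and 156 in ES 2i. R60 stood low in all groups alike.

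The authors' deposited interaction scores passed a level of 30 less often in the gene desert than in the gene loci. The score is −10 times the log2 of the deposited p-value of a bin pair against its local background, so a larger score stands for a smaller p-value. In the gene desert 939 bin pairs had a score, at distances of 20 to 188 kb. The mean score was 9.83 and 9.77 in NPC, 9.76 and 9.53 in ES serum, and 9.74 and 9.37 in ES 2i. Scores above 30 were found in 2.56% and 3.09% of bin pairs in NPC, 2.45% and 2.45% in ES serum, and 2.77% and 2.24% in ES 2i. In the 6 gene loci at the same distances, 10.4% to 12.8% of 60725 bin pairs passed that level in the 6 libraries. Bins overlap, so no test was made. The highest gene desert score was in the same bin pair in every library, with 69.4 and 69.8 in NPC, 62.2 and 69.4 in ES serum, and 74.4 and 73.5 in ES 2i.

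In the authors' deposited classification, 16 gene desert bin pairs carried a class, with 9 named constitutive and 7 named background. None fell in the 6 classes named for 1 or 2 of the groups, which took 1.34% to 2.13% of the scored bin pairs of each gene locus at these distances. The constitutive class took 0.958% of the gene desert bin pairs and 0.0316% to 3.94% in the gene loci. The 9 constitutive bin pairs formed 2 clusters. A cluster of 6 joined chr5:133328809-133340808 with chr5:133348809-133360808 and had mean scores of 54.9 and 55.8 in NPC, 49.3 and 56.2 in ES serum, and 58.2 and 60.3 in ES 2i. A cluster of 3 joined chr5:133444809-133452808 with chr5:133464809-133472808 and had mean scores of 37.9 and 36.4 in NPC, 35.4 and 39.2 in ES serum, and 30.4 and 39.2 in ES 2i. In the cluster of 6 both ES 2i libraries lay above the NPC and ES serum libraries, by less than the gap between the ES serum libraries, and in the cluster of 3 the groups overlapped. All 8 bin pairs with a score above 30 in all 6 libraries were in these clusters. The authors deposited the classes together with these same scores, so high scores in the clusters are not independent support for the class.

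The raw counts under these clusters differed in how far they stood above the decay. The 2 primer pairs in the cluster of 3 bin pairs, F57-R50 and F57-R52, together had 987 and 1057 counts in NPC, 1095 and 1167 in ES serum, and 1142 and 754 in ES 2i. On average they lay above the distance trend by 1.18 and 0.95 log2 units in NPC, 0.85 and 0.94 in ES serum, and 1.74 and 0.96 in ES 2i. The 4 primer pairs in the cluster of 6 had 1306 and 1784 counts in NPC, 1438 and 1631 in ES serum, and 943 and 986 in ES 2i. They lay above the trend by only 0.19 and 0.41 log2 units in NPC, 0.00 and 0.21 in ES serum, and 0.15 and 0.17 in ES 2i. The cluster with the higher deposited scores was thus the one closer to the raw decay, before the levels of its fragments are taken into account. Averaged over the libraries, the median pair stood from the trend by 0.91 for F57, 1.17 for R50 and −0.36 for R52. In the cluster of 6 it stood at 0.45 for F18, −0.39 for F20, −0.94 for F24, 0.38 for R19, 0.67 for R21 and 0.75 for R25. The part of these fragment levels in the heights was not tested.

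CTCF is the zinc-finger protein that anchors many loops, and its sites were few in the gene desert. The authors' peak lists, from 1 ChIP-seq library per condition, held 0 peaks in the gene desert in NPC, 2 in ES serum and 3 in ES 2i. The whole lists held 28860, 50185 and 56138 peaks in the same order. Per 100 kb this is 0, 1.04 and 1.56 peaks in the gene desert and 2.79, 5.14 and 5.64 in the 6 gene loci. A peak at the left end of the locus had a deposited fold enrichment of 13.8 in ES serum (chr5:133317748-133318001) and 18.6 in ES 2i (chr5:133317737-133318031), in fragment F16. Another peak had 9.19 in ES serum (chr5:133444213-133444385) and 13.2 in ES 2i (chr5:133444199-133444424), in fragment F49, and it ends just before the left side of the cluster of 3 constitutive bin pairs. The third peak, with 18.0, was in the ES 2i list alone (chr5:133415658-133415886, fragment F43). All 3 fragments carry forward primers, so contacts between them were not measured by forward-reverse pairs. The median pair of F16 lay above the distance trend by 0.72 and 0.68 log2 units in NPC, 0.08 and −0.02 in ES serum, and 0.83 and 0.96 in ES 2i, and that of F49 lay at −0.01 and −0.23 in NPC, −0.71 and −0.71 in ES serum, and −0.03 and 0.01 in ES 2i. NPC lay near ES 2i on both fragments. Both fragments were also lower in ES serum in their counts with the other 6 loci. There the log2 ratio of NPC to ES serum was 0.88 for F16 and 0.55 for F49. A link between the peaks and these fragment levels was not tested. With 1 library per condition, a difference in peak number between conditions has no replicate check.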

How the data were processed

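The 6 untreated 5C libraries were used. Per the labels' protocols, 3C templates were cut with HindIII and copied with alternating primers. Bowtie and the mm9 build are named in the submitters' processing notes, while other steps are not stated there. The authors deposited raw counts per primer pair, and these counts are the unit of all tests. The authors also deposited, per bin pair, a p-value and an interaction score; the score equalled −10 log2 of the p-value in the gene desert within 8e-07. CTCF peaks carry the authors' fold enrichment (a ratio to background) and −log10 q, and MACS2 is named in the submitters' processing notes. The 43 other per-sample columns of the deposited tables were not used, and 2 gene desert primers outside the authors' bins were left out.

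Pair tests used edgeR 4.0.16 (R 4.3.3; glmQLFit, glmQLFTest) on all 3 groups in 1 fit without a replicate term, with filterByExpr and TMM. Offsets held a loess trend of log2 counts on log2 distance (span 0.5) per library and locus. DESeq2 1.42.0 was an alternative. Primer balancing, which takes out additive primer effects, was chosen after seeing the data. The common biological coefficient of variation was 0.336. Slopes, shares and levels were computed in Python 3.11.15 and tested by exact permutation over libraries. The procedure was tested on simulated data, in which few of the pairs given a change were called, so a pair that was not called is not shown to be unchanged. Members and lists were chosen with earlier results of these data known. Pairs were named by a rule: per comparison the 3 largest rises and 3 largest falls among called pairs whose libraries do not overlap, plus the 3 highest pairs, the longest pair and the fragments with the highest and lowest counts. The 6 pairs called after balancing, the fragments with extreme medians, and F45, R48 and F37 were named after their values were seen.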

Additional observations from a re-analysis of the deposited data

How the results depend on the processing

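Pairs at least 16 kb apart had a median count of 54.5 to 122 per library, and how far depth limited their comparison was not tested. Shares and slopes kept their direction under every alternative run for them, and 2 libraries against 2 cannot pass the threshold. For NPC against ES 2i, called pairs numbered 37 with TMM scaling alone, 5 with one distance trend over all loci, 2 with a trend from mean counts, 72 with DESeq2 and its size factors, 3 with DESeq2 and the distance-trend offsets, 2 at a mean count of at least 50, 0 in 16 kb windows, 0 with only the libraries of both groups and 0 with primer balancing. The shares of all pairs called in these fits were 8.09%, 6.15%, 4.56%, 13.8%, 8.39%, 11.2%, 17.1%, 3.05% and 2.48% in the same order. For NPC against ES serum they numbered 173 with TMM scaling alone, 173 with DESeq2 and its size factors, 53 in 8 kb windows, 17 in 16 kb windows, 53 without pairs under 16 kb and 6 with primer balancing, beside 17.8%, 17.9%, 21.3%, 29.2%, 13.9% and 3.48% of all pairs. For ES serum against ES 2i they numbered 46 in 8 kb windows, 10 in 16 kb windows and 0 with primer balancing, beside 15.9%, 22.1% and 0.189% of all pairs. Windows leave fewer features to test (224 of 8 kb and 73 of 16 kb). Leaving out 1 library gave 0 to 4, 22 to 82 and 13 to 92 called pairs in the same order of comparisons, beside 0.79% to 3.95%, 5.17% to 12.7% and 1.97% to 13% of all pairs. Primer balancing and the sets without reverse primer 40 or neighbouring fragments were chosen after seeing the data. Under balancing F20-R40 turned to −0.070 for NPC against ES serum and F45-R40 to 0.065 for ES serum against ES 2i. The cause of these changes was not tested.

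The slope relative to the gene loci was −0.039 without pairs under 16 kb, and leaving out 1 library gave −0.18 to −0.17. The level at matched distance was −0.027 on median counts, and −0.64 to −0.52 with 1 library left out. With 5 libraries the smallest exact sign-flip p is 0.0625, so these omissions cannot pass. The replicate spread in NPC, ES serum and ES 2i was 0.59, 0.46 and 0.67 at a mean count of at least 50, 0.32, 0.39 and 0.62 in 16 kb windows, and 0.71, 0.55 and 0.74 without pairs under 16 kb. Same-numbered replicates deviated together only weakly (Pearson's r 0.04 to 0.14 over all loci, 0.07 to 0.22 in the gene desert), so the numbers were not taken to pair samples. A replicate block gave 2, 96 and 101 called pairs, beside 5.51%, 17.2% and 12.4% of all pairs.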
